A study of Mus musculus with 40 samples.

Results

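Voltage-gated sodium and calcium channels are described here through the 35 of their subunit genes that were measured on a microarray of mouse brain RNA, out of 19505 named genes in all. The members were the genes with a symbol that begins with Scn, a number and the letter a or b, or with Cacna, Cacnb or Cacng and a number. No measured value entered that choice, and each gene had a single row on the array. They comprised 7 sodium channel alpha genes (Scn1a, Scn2a, Scn3a, Scn7a, Scn8a, Scn10a and Scn11a), 3 sodium channel beta genes, 10 genes of calcium channel pores, 4 alpha2delta genes, 3 calcium channel beta genes and 8 genes of the gamma family. Total RNA came from amygdala, cerebellum, hippocampus, prefrontal cortex and striatum of mice 8 to 10 weeks old. The mice carried the Ala92D2HY or the Thr92D2HY genotype on a background labelled C56BL/6, called Ala and Thr below, which is alanine or threonine at position 92 of Dio2. Dio2 encodes the type 2 deiodinase, which turns thyroxine into the active thyroid hormone. All animals were kept on chow, with no treatment that differs between groups in the labels. There were 10 groups, each region in each genotype, with 4 arrays apiece that carry the numbers 1 to 40 in the labels. With 4 arrays a group, it is their number that sets how precise a value can be.

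A voltage-gated sodium channel is a single large alpha protein that forms the pore and the voltage sensor, joined by small beta subunits that alter its gating and tie it to the cell surface. It carries the upstroke of the action potential in axons and cell bodies. A high-voltage calcium channel is built from a pore-forming alpha1 protein, a cytoplasmic beta subunit and an extracellular alpha2delta subunit, and it couples the action potential to transmitter release, gene expression and dendritic spikes, while T-type channels open near rest without needing these partners. The gamma genes are related in sequence to the gamma subunit of the muscle calcium channel, but several of their brain members, known as TARPs, carry AMPA-type glutamate receptors to synapses. Brain regions differ in the subunits they use, and mouse mutants with ataxia and absence seizures have led to several of these genes.

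The values are log2 signals that the authors had normalized and summarized for each gene with RMA, and a difference of 1 is a factor of 2. Levels are compared only within a gene, since probes of different genes respond differently. The negative control rows had medians of 5.73 to 6.35 over the arrays, and 25 of the 35 genes had regional means above that range in every region. Cacna1f, Cacna1s, Cacna2d4, Cacng1, Cacng6, Scn10a and Scn11a were above it in no region. These include pore genes known from retina (Cacna1f), skeletal muscle (Cacna1s) and pain-sensing neurons (Scn10a and Scn11a). The tests took in 14978 genes above a floor of 4.60 on at least 4 arrays, and 32 members were among them. Cacna1f, Scn10a and Scn11a were too dim for it. Where a region's signal lies in or below the control range, background limits the difference, and the difference in RNA may be larger.

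The labels were set beside the mean log2 signal of marker lists of the regions' own neurons. The 4 measured granule cell markers averaged 17.23 to 17.59 over the cerebellar arrays, against 5.29 to 9.51 elsewhere, and the 4 Purkinje cell markers 16.49 to 16.95, against 7.68 to 10.30. The 5 striatal neuron markers averaged 15.73 to 16.35 in striatum, against 7.28 to 12.44 elsewhere, and the 5 hippocampal markers 10.62 to 11.89 in hippocampus, against 6.83 to 10.01. These ranges did not meet. Within the hippocampal list, Wfs1 had a lower mean in hippocampus (10.98) than in amygdala (11.78) and striatum (11.59). C1ql2, Neurod6, Prox1 and Spink8 had their highest means in hippocampus. The 4 neocortical markers averaged 14.58 to 15.61 in prefrontal cortex, a range that overlaps the 13.23 to 15.25 of amygdala, against 8.70 to 14.24 in the other regions. No such list was set for amygdala. Oligodendrocyte markers were highest in striatum, where 5 of 5 were above the controls with a mean of 13.08 to 14.08, against 8.07 to 12.81 in the other regions, and their part in the striatal results was not tested. In 9 arrays, markers of another region's neurons lay more than 1 log2 unit above the mean of the labelled region. Ala amygdala 1 had striatal markers 3.14, granule cell markers 2.97 and Purkinje cell markers 1.64 above its region's mean, and Ala amygdala 2 had hippocampal markers 1.45 above it. Neocortical markers were 1.43 above the mean in Ala cerebellum 12, 1.70 in Ala striatum 33 and 1.76 in Thr striatum 39. Thalamic markers stood 2.10 and 1.25 above it in Thr hippocampus 23 and 24, and granule cell markers 1.22 and 1.03 above it there. Of these granule cell markers, Gabra6 and Cbln3 stayed below the controls on every hippocampal array, at most 4.11 and 4.16. Olfactory bulb markers stood 1.74 and 1.29 above their region's mean in Ala prefrontal cortex 27 and Thr prefrontal cortex 32. The 4 olfactory bulb markers were above the controls in prefrontal cortex as a whole, and 0 of 4 were in amygdala or hippocampus. Several differences below are given both with all arrays and without these 9.

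The first question was how the channel genes differ between regions, each region being set against the mean of the other 4. The cerebellum stood apart most, with Cacna1a, the pore of P/Q-type calcium channels, 8.89-fold higher there and Scn3b, a sodium channel beta subunit, 117-fold lower. The striatum had the widest single difference, Scn4b at 189-fold above the other regions. Of the 32 tested members, 30 differed among regions in an F-test, where 68.8% of all tested genes did, and only Cacna1s and Cacng6 did not. A gene was called for a region at an adjusted p under 0.05 with a log2 difference of at least 1. By that rule 22 of 32 members were called in at least 1 region, against 25% of all tested genes. In cerebellum 8 members were higher (8.69% of all tested genes were) and 12 were lower (10.1%). In striatum 9 were higher (5.71%) and 6 lower (5.2%), and in amygdala 6 were higher (3.4%) and 4 lower (2.44%). Hippocampus had 2 higher (3.57%) and 4 lower (2.34%), and prefrontal cortex 6 higher (3.28%) and 2 lower (1.94%). The median absolute difference of the members was 1.58 in cerebellum and 0.82 in striatum, beside 0.36 and 0.26 over all tested genes. In RNA of whole tissue, fewer cells of a type and less RNA of a gene in each cell cannot be told apart.

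**Figure D1:**
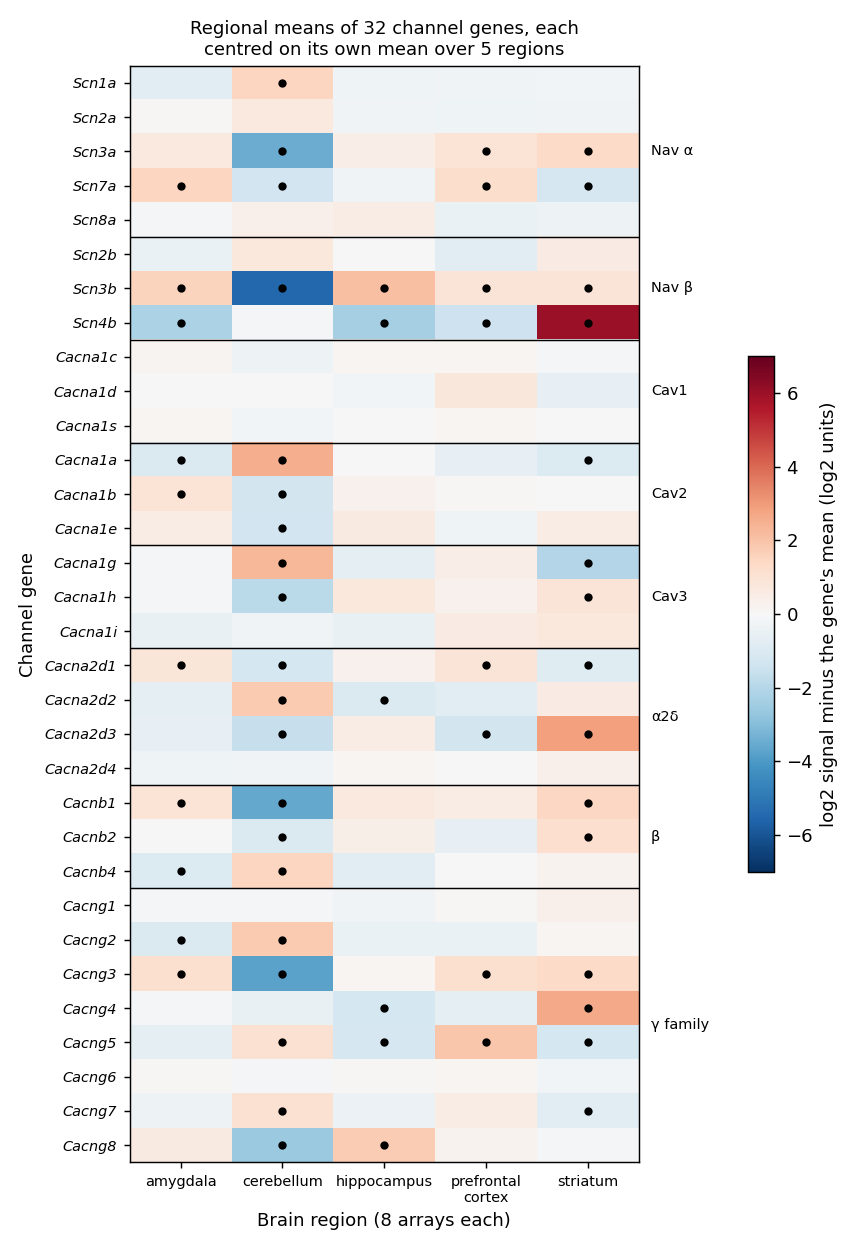
Heat map of the regional means of the 32 tested channel genes, with genes down the page by subunit class and 5 brain regions across (8 arrays each). Colour gives the log2 signal minus the gene's own mean over the regions, and a black dot marks a called difference from the mean of the other 4 regions. The cerebellum column holds the dots of 20 genes, with Scn3b the deepest blue, and Scn4b in striatum is the deepest red.

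Among the sodium channel pores, Scn1a, the channel of fast-spiking interneurons and Purkinje cells, was higher in cerebellum. Its 8 cerebellar arrays ran from 12.67 through a median of 13.20 to 13.42, and the highest array of any other region was 12.35, in striatum. Every cerebellar array therefore lay above every other array. The cerebellum exceeded the other regions by 1.87 ± 0.12 (SE, adjusted p = 4.79e-17), while striatum, prefrontal cortex and hippocampus could not be told apart as neighbours in the order. Scn2a, the main pore of excitatory axons, was also at its top in cerebellum, at 15.58 ± 0.16 (SD, n = 8), 0.56 ± 0.13 above amygdala (adjusted p = 0.000215), but that falls short of a call. Scn8a, which clusters at nodes of Ranvier and the start of the axon, kept within 1.01 log2 units over the 5 regional means, the highest in hippocampus at 10.95 ± 0.29 and the lowest in prefrontal cortex at 9.94 ± 0.41 (SD, n = 8 each).

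Scn3a, best known as the sodium channel of the embryonic and newborn brain, ran the other way. The cerebellar arrays held 6.40, 6.80 and 7.59 as lowest, median and highest, and the lowest array elsewhere was 10.37, in hippocampus. The ranges did not meet. The gene was 20.5-fold lower in cerebellum than in the other regions (log2 difference -4.35 ± 0.12, adjusted p = 2.24e-29). In prefrontal cortex and striatum it was called higher, by 1.20 and 1.66, but those reference means include the cerebellum. Against the other 3 forebrain regions the same contrasts gave 0.12 (adjusted p = 0.589) and 0.61 (adjusted p = 9.96e-05), neither of them a call, and no neighbours in the order of the 4 forebrain regions differed. The ends of that order lay further apart, with means of 11.74 in striatum and 10.90 in hippocampus. Hippocampus stood at -0.51 against the other 3 forebrain regions (adjusted p = 0.00186), also short of a call.

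Scn7a encodes Nax, a relative of the pores that senses extracellular sodium in the organs that govern thirst and is not opened by voltage in the usual way. It was highest in amygdala, where 8 arrays ran from 7.23 through 8.04 to 9.37, and in prefrontal cortex, from 7.32 through 7.55 to 8.42. Its cerebellar arrays ran from 4.23 through 5.27 to 6.01 and its striatal arrays from 4.37 through 5.24 to 6.42, with medians below the range of the negative controls. The hippocampal mean of 6.30 lay within that range, so the other 4 regions of each comparison include 3 whose mean was not above the controls. Amygdala exceeded the other regions by 1.90 ± 0.19 (adjusted p = 1.21e-10) and prefrontal cortex by 1.54 ± 0.19 (adjusted p = 1.67e-08). These contrasts kept their calls against the forebrain regions alone, at 1.58 and 1.20, and amygdala and prefrontal cortex could not be told apart (0.28 ± 0.24, adjusted p = 0.506). The highest amygdala value, 9.37, belonged to Ala amygdala 1. Without the 9 arrays that stood apart the amygdala difference was 1.65 (adjusted p = 1.02e-07) and the prefrontal difference 1.66 (adjusted p = 4.6e-08).

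Scn4b and Scn3b, both sodium channel beta genes, had the widest ranges of regional means among the members. Scn4b encodes the beta subunit with a cytoplasmic tail that can block open channels and so gives the resurgent current of Purkinje cells. In striatum its arrays ran from 13.96 through a median of 15.21 to 15.73, and no array of another region passed 10.00. The striatum was 189-fold above the mean of the other regions (7.56 ± 0.28, adjusted p = 3.29e-24). Cerebellum came second, from 8.66 through 8.88 to 9.50, and was 1.39 ± 0.36 above prefrontal cortex (adjusted p = 0.00124). Prefrontal cortex, amygdala and hippocampus lay lowest, with medians of 7.66, 6.31 and 6.81, and no neighbours among them differed. They were called lower than the mean of the others by -1.81, -2.75 and -2.93, a mean that in each case contains the striatum. The array at 10.00 was Ala amygdala 1, which also had the high striatal markers, while the other 7 amygdala arrays ran from 5.87 to 7.25. Without the 9 arrays that stood apart, the amygdala difference was -3.14 (adjusted p = 3.27e-14).

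Scn3b, a beta subunit that binds its pore without a covalent bond, was the member most depleted in cerebellum. There the arrays ran from 6.22 through 7.54 to 9.84, and in the other regions the lowest of 32 arrays was 13.04, in striatum. The difference was -6.87 ± 0.21 (adjusted p = 1.16e-27), or 117-fold lower. The cerebellar array at 9.84 was Ala cerebellum 12, with its higher neocortical markers, and without the 9 arrays the difference was -7.25. In all 4 forebrain regions Scn3b was called higher, where each was set against a mean that includes the cerebellum. Against the other 3 forebrain regions only hippocampus was called, at 1.01 ± 0.22 (adjusted p = 5e-04). Prefrontal cortex and striatum then turned sign, to -0.66 (adjusted p = 0.0266) and -0.60 (adjusted p = 0.0284). Scn2b, whose product is linked to the pore by a disulfide bond, was highest in cerebellum and striatum, at 12.42 ± 0.11 and 12.26 ± 0.43 (SD, n = 8 each). These could not be told apart (0.15 ± 0.18, adjusted p = 0.514), and striatum was 0.62 ± 0.18 above hippocampus (adjusted p = 0.00641). Scn2b passed no contrast against the other 4 regions, but striatum exceeded the other 3 forebrain regions by 1.00 ± 0.15 (adjusted p = 4.08e-07).

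**Figure D2:**
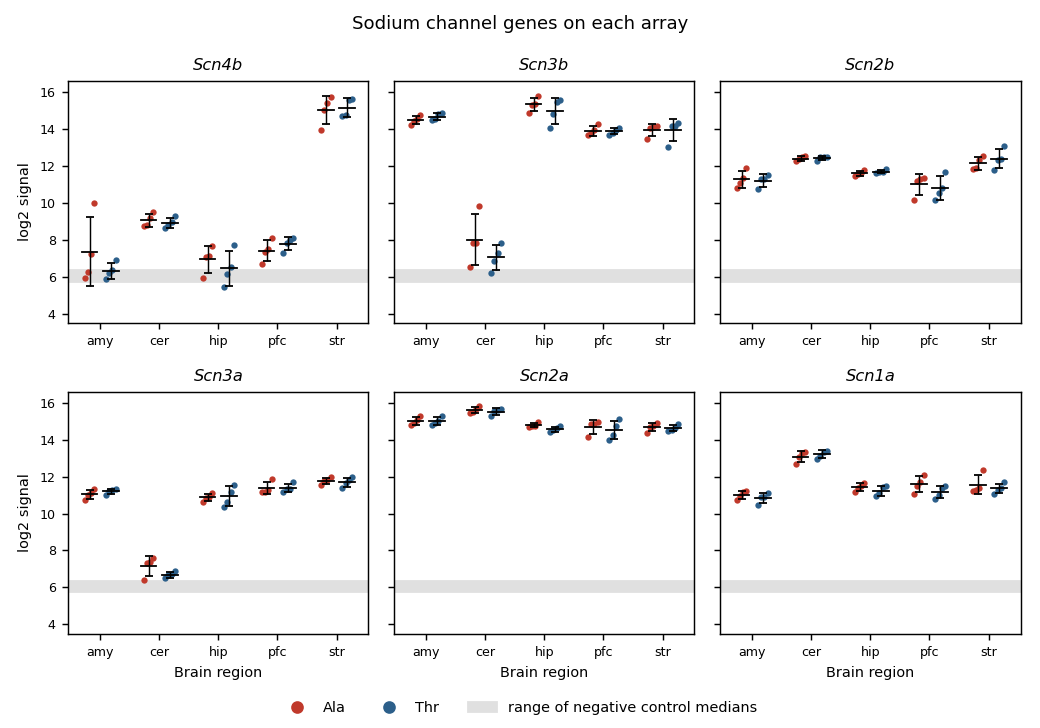
Log2 signal of 6 sodium channel genes on each of 40 arrays, by region (amy, amygdala; cer, cerebellum; hip, hippocampus; pfc, prefrontal cortex; str, striatum) and genotype, with Ala to the left of Thr. Black bars give the mean and SD of 4 arrays, and the grey band is the range of the negative control medians. Scn4b stands out in striatum (13.96 to 15.73), and Scn3b and Scn3a fall close to the band in cerebellum, apart from Scn3b at 9.84 on Ala cerebellum 12.

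Among the pores of high-voltage calcium channels, the P/Q-type gene Cacna1a and the N- and R-type genes lay on opposite sides in cerebellum. Cacna1a, which carries most of the calcium current of Purkinje cells and is mutated in tottering mice, ran from 14.62 through 14.73 to 14.80 over the cerebellar arrays. The highest array elsewhere was 12.46, in hippocampus, so the ranges were far apart. The difference was 3.15 ± 0.11 (adjusted p = 1.81e-25). Hippocampus was next, 0.60 ± 0.14 above prefrontal cortex (adjusted p = 0.00186), and striatum and amygdala were lowest and could not be told apart (0.06 ± 0.14, adjusted p = 0.802). Cacna1b, the N-type pore of many nerve terminals, had cerebellar arrays from 10.95 through 11.29 to 11.70, below every other array. It was lower there by -1.63 ± 0.11 (adjusted p = 4.98e-16). Its top region was amygdala, where all 8 arrays, from 13.26 to 13.94, exceeded every array of the other regions, which was true of 0.16% of all tested genes. The amygdala difference was 1.20 ± 0.11 (adjusted p = 4.23e-11), and 0.84, short of a call, against the other 3 forebrain regions. Cacna1e, the R-type pore, had cerebellar arrays from 11.46 through 11.63 to 12.34, against 12.44 as the lowest array elsewhere. It was lower in cerebellum by -1.71 ± 0.11 (adjusted p = 2.92e-17). The highest of these cerebellar values was again that of Ala cerebellum 12, and without the 9 arrays the difference was -1.87.

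The T-type genes were also opposed. Cacna1g, the T-type pore of thalamic relay and deep cerebellar neurons, ran from 10.42 through 10.80 to 11.01 in cerebellum, above all other arrays, and from 5.31 through 6.28 to 7.22 in striatum, around the range of the negative controls. Cerebellum was higher by 2.92 ± 0.16 (adjusted p = 3.59e-19) and striatum lower by -2.56 ± 0.16 (adjusted p = 7.86e-17). One hippocampal array, Thr hippocampus 23, reached 9.23 where the other 7 ran from 6.96 to 8.01, and this array had the highest thalamic markers of its region. The cerebellar difference was 3.12 and the striatal one -2.67 without the 9 arrays. In Cacna1h the highest and lowest regions were exchanged. Its cerebellar arrays ran from 6.31 through 6.61 to 7.24, below all others, with a difference of -2.37 ± 0.13 (adjusted p = 5.6e-19), and striatum was highest, from 9.18 through 9.34 to 9.97 (1.14 ± 0.13, adjusted p = 2.27e-09). Against the other 3 forebrain regions the striatal difference was 0.58, short of a call. Striatum and hippocampus could not be told apart in Cacna1h (0.16 ± 0.17, adjusted p = 0.525). Cacna1i, known from the reticular thalamus, was not called in any region, but striatum and prefrontal cortex formed an upper pair at means of 7.39 and 7.22, with prefrontal cortex 0.79 ± 0.20 above cerebellum (adjusted p = 0.00111).

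The L-type pores were called in no region against the other 4. Cacna1c, the main L-type channel of brain and heart, had regional means within 0.57 log2 units, the highest 13.05 ± 0.27 in amygdala and the lowest 12.49 ± 0.19 in cerebellum (SD, n = 8 each), and no neighbours in its order differed. Cacna1d, the L-type channel that opens at lower voltage, was highest in prefrontal cortex, from 8.97 through 9.88 to 10.90, and 0.79 ± 0.17 above amygdala (adjusted p = 0.000617). It was called there only against the other 3 forebrain regions, at 1.01 ± 0.14 (adjusted p = 1.98e-07). Its top array was Ala prefrontal cortex 27, the array with the most olfactory bulb marker signal.

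Each auxiliary class of the calcium channel had members that led in different regions. Cacna2d3, an alpha2delta gene known from hearing and pain, marked the striatum, where its arrays ran from 13.52 through 13.99 to 14.78 and no other array passed 11.99. The difference was 3.61 ± 0.17 (adjusted p = 4.08e-21), or 12.2-fold. Hippocampus followed at 11.68 ± 0.17 (SD, n = 8), 2.34 ± 0.21 below striatum and 1.09 ± 0.21 above amygdala, and cerebellum was lowest with prefrontal cortex (0.36 ± 0.21 between them, adjusted p = 0.162). Cacna2d2, the gene of ducky mice and an alpha2delta subunit of Purkinje cells, ran from 9.70 through 10.05 to 10.48 in cerebellum, above every other array. It was 4.78-fold higher there (2.26 ± 0.16, adjusted p = 4.19e-16), and striatum was second, 1.19 ± 0.20 above amygdala (adjusted p = 4.71e-06). Its highest amygdala value, 8.77 against 7.23 to 7.90 on the other 7 arrays, was on Ala amygdala 1, and without the 9 arrays the cerebellar difference was 2.29. Cacna2d1, the receptor of the drug gabapentin, was highest in prefrontal cortex (10.59, 11.21 and 11.46 as lowest, median and highest) and amygdala (10.58, 11.17 and 11.66), which could not be told apart (0.07 ± 0.14, adjusted p = 0.819). It was lowest in cerebellum, from 8.75 through 9.07 to 9.22, by -1.52 ± 0.11 (adjusted p = 1.22e-15).

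Of the cytoplasmic beta subunits, which bring the pore to the membrane, Cacnb4 favoured the cerebellum and Cacnb1 and Cacnb2 were lower there. Cacnb4, mutated in lethargic mice, ran from 14.62 through 14.78 to 14.84 in cerebellum, above all other arrays (1.88 ± 0.13, adjusted p = 7.69e-16). Cacnb1, the beta subunit of skeletal muscle with a brain splice form, ran from 8.40 through 8.84 to 9.83 in cerebellum, against 12.45 as the lowest of all other arrays. This was a 22.4-fold difference (-4.48 ± 0.11, adjusted p = 8.19e-31), the smallest adjusted p among the members. Its striatal arrays, from 13.67 through 14.05 to 14.13, were the highest (1.82 ± 0.11, adjusted p = 3e-17, and 0.74, short of a call, against the other 3 forebrain regions), and 0.51 ± 0.14 above amygdala (adjusted p = 0.00399). Cacnb2, the chief beta subunit of heart, was the only member in which all neighbours of the order differed: striatum over hippocampus by 0.74, hippocampus over amygdala by 0.43, amygdala over prefrontal cortex by 0.58 and prefrontal cortex over cerebellum by 0.42, with adjusted p from 0.000145 to 0.0493.

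In the gamma family the TARPs divided the regions among them. Cacng2, stargazin, whose loss gives the stargazer mouse its ataxia, ran from 14.93 through 15.47 to 15.68 in cerebellum, above all other arrays (2.27 ± 0.12, adjusted p = 2.05e-19). Cacng3, its close relative, was 25.7-fold lower there. The cerebellar arrays of Cacng3 ran from 9.88 through 10.39 to 11.98, against 13.77 as the lowest array of the forebrain (-4.69 ± 0.16, adjusted p = 1.12e-26), and the array at 11.98 was Ala cerebellum 12. The difference was -4.91 without the 9 arrays. Striatum, amygdala and prefrontal cortex were neighbours in the order of Cacng3 with no difference past the threshold, and prefrontal cortex was 0.96 ± 0.20 above hippocampus (adjusted p = 0.000259). Cacng4 marked the striatum, from 13.01 through 13.87 to 14.62, where the highest array elsewhere was 11.57. It was 9.75-fold higher there (3.29 ± 0.14, adjusted p = 2.54e-22). Cacng8 was highest in hippocampus, where it is known as the TARP of pyramidal neurons. It ran from 9.98 through 10.66 to 11.50 in hippocampus and from 5.97 through 6.26 to 7.14 in cerebellum, close to the negative controls. Hippocampus exceeded the other regions by 2.22 ± 0.16 (adjusted p = 1.04e-14), and the other 3 forebrain regions by 1.50 ± 0.16 (adjusted p = 1.2e-09).

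Cacng5 and Cacng7, the TARPs of the second type, shared part of their order. Cacng7 was highest in cerebellum, at 15.04 ± 0.17 (SD, n = 8), 0.51 ± 0.13 above prefrontal cortex (adjusted p = 0.000673), and lowest in striatum. Cacng5 was highest in prefrontal cortex, where its arrays ran from 7.99 through 9.39 to 10.55, and 0.89 ± 0.24 above cerebellum (adjusted p = 0.00183). The prefrontal difference from the other 4 regions was 2.44 ± 0.19 (adjusted p = 1.72e-13). Over the 8 prefrontal arrays the level of Cacng5 moved with the olfactory bulb markers. The highest values, 10.55 and 10.19, were those of Ala prefrontal cortex 27 and Thr prefrontal cortex 32, where the mean of the 4 markers was 11.57 and 11.12. The lowest Cacng5 values, 7.99, 8.22 and 8.42, fell on arrays with marker means of 9.48, 8.46 and 7.71. Without the 9 arrays that stood apart the difference was 2.11 (adjusted p = 1.86e-11), and the part of the marker signal in the rest was not tested. Cacng1 and Cacng6, genes known from muscle, stayed below the controls in every region.

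**Figure D3:**
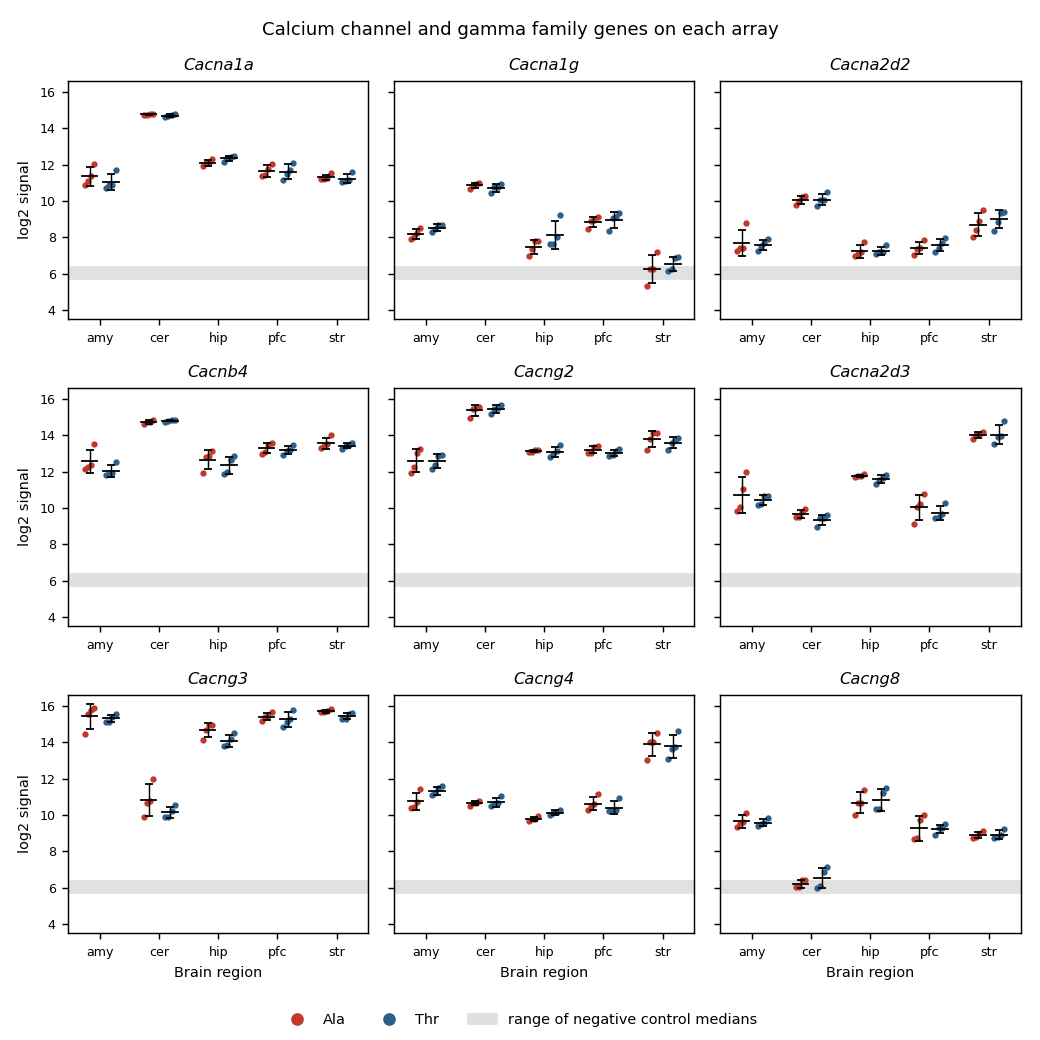
Log2 signal of 9 calcium channel and gamma family genes on each of 40 arrays, by region (amy, amygdala; cer, cerebellum; hip, hippocampus; pfc, prefrontal cortex; str, striatum) and genotype, with Ala to the left of Thr. Black bars give the mean and SD of 4 arrays, and the grey band is the range of the negative control medians. Cacna1a, Cacna1g, Cacna2d2, Cacnb4 and Cacng2 are highest in cerebellum, Cacna2d3 and Cacng4 in striatum and Cacng8 in hippocampus, and Cacng3 and Cacng8 are lowest in cerebellum.

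**Figure D4:**
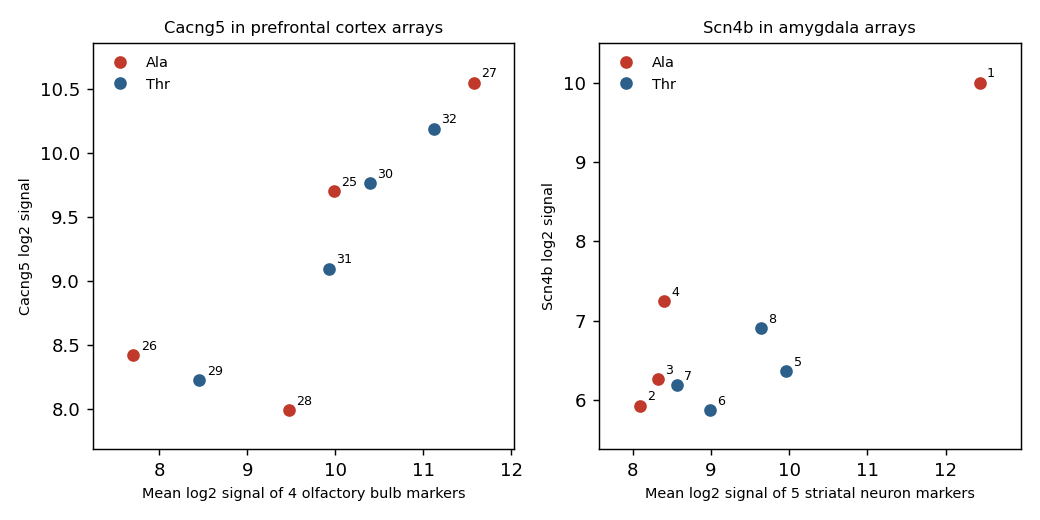
Level of a member against the mean log2 signal of another region's markers, with a point for each of 8 arrays and its number in the labels. Left, Cacng5 in prefrontal cortex, where arrays 27 and 32 are highest on both axes (10.55 and 10.19 for Cacng5). Right, Scn4b in amygdala, where array 1 lies apart at 10.00 for Scn4b and 12.44 for the striatal markers.

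Set side by side, the cerebellum had members called higher and members called lower in the same class: Cacna1a with Cacna1b and Cacna1e, Cacna1g with Cacna1h, Cacna2d2 with Cacna2d1 and Cacna2d3, Cacnb4 with Cacnb1 and Cacnb2, Cacng2 with Cacng3 and Cacng8, and Scn1a with Scn3a. All 8 cerebellar arrays lay above every other array for 6 members (Cacna1a, Cacna1g, Cacna2d2, Cacnb4, Cacng2 and Scn1a), where 6.96% of all tested genes did so. They lay below every other array for 8 members (Cacna1b, Cacna1e, Cacna1h, Cacnb1, Cacng3, Cacng8, Scn3a and Scn3b), where 5.67% did. The striatum had 3 members above every other array (Cacna2d3, Cacng4 and Scn4b), beside 2.16% of all tested genes, and 0 below (1.18%). Hippocampus had 0 members above (0.547%) and 0 below (0.0868%), prefrontal cortex 0 above (0.347%) and 0 below (0.0334%), and amygdala 0 below (0.0267%). Among the 8 called higher in cerebellum were Cacna1a, Cacnb4, Cacna2d2 and Cacng2, the genes of the ataxic mutants tottering, lethargic, ducky and stargazer. These mutants were picked with the values known, and no full list of such mutants was set. Within a member, 52 of 128 pairs of regions adjacent in its order differed. The same count was not made over all tested genes, so it does not set the members apart from other genes.

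Because the cerebellum sits far from the forebrain for so many members, the forebrain regions were also compared among themselves, a comparison chosen after the data had been seen. Striatum then had 6 members higher (Cacna2d2, Cacna2d3, Cacnb2, Cacng4, Scn2b and Scn4b, where 5.09% of all tested genes were) and 4 lower (Cacna1g, Cacna2d1, Cacng5 and Scn7a, 5.41%). Prefrontal cortex had 5 higher (Cacna1d, Cacna1g, Cacng5, Cacng7 and Scn7a, 2.35%) and 4 lower (Cacna2d3, Cacnb2, Cacng4 and Scn4b, 1.74%). Hippocampus had 2 higher (Cacng8 and Scn3b, 2.75%) and 4 lower (Cacng3, Cacng4, Cacng5 and Scn4b, 2.46%). In amygdala a single member, Scn7a, was higher (1.91%), and Cacna2d3 and Scn4b were lower (1.9%).

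Several members sit beside each other on a chromosome with no coding gene between them in the RefSeq gene table, and several such neighbours differed in their regional order. Scn2b and Scn4b adjoin on chromosome 9, and both had striatum in their top pair of regions, but the striatum exceeded hippocampus by 0.62 in Scn2b and 8.39 in Scn4b. Cacng7 and Cacng8 adjoin on chromosome 7. The cerebellum was the highest region for Cacng7, at 15.04, and the lowest for Cacng8, at 6.37. Scn3a and Scn2a, on chromosome 2, were opposed in cerebellum in the same way. Over the 10 group means the correlation was 0.62 for Scn2b with Scn4b, -0.70 for Cacng7 with Cacng8 and -0.91 for Scn3a with Scn2a, values that describe means that share their arrays. On chromosome 11, Cacng4 with Cacng5 gave -0.39 and Cacng1 with Cacng4 gave 0.75, and on chromosome 7 Cacng8 with Cacng6 gave 0.41. Cacng1 and Cacng6 lay below the negative controls in every region, so background limits what the correlations with them can show.

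Promoters of the first 2 pairs are shown because adjoining genes differ so widely here. Each is the RefSeq window of 250 bases before to 50 bases after a gene's start in GRCm38.p6, read 5′ to 3′ on the plus strand, which is the strand of all 4 genes. Capitals mark AGGTCA, the core of a thyroid hormone response element, and GGGCGG, the site of Sp1, on either strand. TGACGT, the cyclic AMP response core, and TATAAA, the TATA box, were searched too and would also be in capitals. The windows lie at chr9:45138374-45138673 (Scn4b), chr9:45117626-45117925 (Scn2b), chr7:3393792-3394091 (Cacng8) and chr7:3332575-3332874 (Cacng7).
Scn4b: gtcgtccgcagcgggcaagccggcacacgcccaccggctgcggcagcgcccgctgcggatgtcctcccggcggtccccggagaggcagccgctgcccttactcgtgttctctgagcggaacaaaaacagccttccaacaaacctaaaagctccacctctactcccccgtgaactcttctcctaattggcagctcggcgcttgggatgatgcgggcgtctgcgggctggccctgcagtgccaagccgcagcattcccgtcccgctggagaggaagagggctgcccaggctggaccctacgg
Scn2b: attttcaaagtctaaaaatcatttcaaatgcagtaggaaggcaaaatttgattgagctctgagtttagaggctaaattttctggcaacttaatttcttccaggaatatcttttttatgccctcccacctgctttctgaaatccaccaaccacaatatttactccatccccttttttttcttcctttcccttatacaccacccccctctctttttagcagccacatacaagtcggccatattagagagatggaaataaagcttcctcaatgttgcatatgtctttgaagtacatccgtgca
Cacng8: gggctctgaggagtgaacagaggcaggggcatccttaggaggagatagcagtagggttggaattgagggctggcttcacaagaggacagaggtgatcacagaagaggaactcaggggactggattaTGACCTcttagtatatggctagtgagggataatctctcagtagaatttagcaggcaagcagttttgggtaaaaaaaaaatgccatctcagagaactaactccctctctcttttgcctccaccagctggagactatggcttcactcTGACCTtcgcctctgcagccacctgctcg
Cacng7: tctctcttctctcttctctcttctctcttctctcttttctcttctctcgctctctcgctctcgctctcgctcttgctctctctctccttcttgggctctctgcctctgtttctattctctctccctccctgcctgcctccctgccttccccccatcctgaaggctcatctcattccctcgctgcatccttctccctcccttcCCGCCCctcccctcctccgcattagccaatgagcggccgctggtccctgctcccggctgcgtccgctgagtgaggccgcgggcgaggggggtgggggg

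The neighbours differed in base composition as well. The Scn4b window was 66.3% G or C with 26 CpG dinucleotides and the Scn2b window 38.3% with 2. The Cacng8 window was 50% with 2 CpG and the Cacng7 window 62.0% with 15. Cacng8 held the thyroid core 2 times, both on the reverse strand, and Cacng7 held the Sp1 site 1 time. The table had 37 promoters for 27 of the 35 members. Their median was 57.3% G or C and 11 CpG, beside 52.7% and 7 over all 32851 promoters. AGGTCA was in 4 of the 37 (Scn1a, Cacng8, Scn8a and Cacna1f), and in 16.3% of all promoters. GGGCGG was in 14 of the 37 and in 35.7% of all, TGACGT in 1 and 7.51%, and TATAAA in 2 and 13.6%. The repressor REST has been described at a sodium channel gene, and the 2 parts of its site, AGCACC and GGACAG, were in 5 and 6 of the 37 (16.2% and 22.2% of all). Placed 2 bases apart in that order they were in 0 of the 37 and in 0.0517% of all. In the windows shown no marked match overlaps another, and a match describes letters, not a bound site.

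Genes whose products bind these channels were counted by the same rule, by which 8.69% of all tested genes were higher and 10.1% lower in cerebellum, 3.57% and 2.34% in hippocampus, and 5.71% and 5.2% in striatum. Of 12 sodium channel partners, 4 were higher and 2 lower in cerebellum. The higher ones included Fgf14 (1.97 ± 0.13), a cytoplasmic FGF homologue at the start of the axon that is mutated in an inherited ataxia, Fgf11 (1.59 ± 0.20) and Cntnap1 (1.46 ± 0.11), a protein of the node's flank. Fgf13, another FGF homologue, was lower there by -3.29 ± 0.15 (adjusted p = 1.04e-21) and higher in hippocampus by 2.38 ± 0.15 (adjusted p = 6.86e-16). Of 17 calcium channel partners measured from a list of 19, 3 were higher and 5 lower in cerebellum. The active zone gene Rims2 was higher by 2.15 ± 0.12, and the lower ones included Stx1a (-4.54 ± 0.27), Rimbp2 (-3.74 ± 0.14) and Erc2 (-3.35 ± 0.12), all of the release machinery. The cerebellar mean of Stx1a, 3.95, lies below the negative control medians, and so does that of Stac, 5.51, which counts among the 3 higher. Of 8 AMPA receptor and accessory genes, partners of the TARPs, 2 were higher in cerebellum and 5 lower. Gria4, a subunit of cerebellar glia and granule cells, was higher by 3.64 ± 0.15, and the cornichons Cnih3 and Cnih2 were lower by -5.47 ± 0.25 and -4.24 ± 0.14. In hippocampus, where Cacng8 led, Shisa6 (3.97 ± 0.27), Cnih2 (2.56 ± 0.14) and Cnih3 (2.12 ± 0.25) were higher, 4 of the 8 in all, and Gria4 was lower. Shisa6 and Cnih3 were not particular to hippocampus. Shisa6 was also called higher in cerebellum (3.49 ± 0.27), where Cacng8 was lowest. Cnih3 was called higher in amygdala (3.28 ± 0.25) and prefrontal cortex (2.77 ± 0.25) as well, with larger differences than in hippocampus. Of 4 measured genes of the sodium leak channel complex, 1 was higher in cerebellum, and in striatum 1 was higher and 1 lower.

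The second question was whether the Ala and Thr genotypes differ in these genes. No member did by the adjusted threshold of 0.05 in any region, with 0 of 32 called in limma's test in each. Over all tested genes 0.12% were called in amygdala, 0% in cerebellum, hippocampus and prefrontal cortex, and 0.0801% in striatum. The average over regions also had 0 members (0.02% of all genes), and the F-test of whether the difference varies between regions had 0 (0.0401%), also at an unadjusted p under 0.05 (2.68%). At an unadjusted p under 0.05 there were 3 members in amygdala (5.33% of all genes), 4 in cerebellum (1.94%), 2 in hippocampus (3.14%), 0 in prefrontal cortex (2.33%), 2 in striatum (6.14%) and 2 in the average (5.37%). The smallest adjusted p of a member was 0.806, in striatum. The difference was positive, so higher in Ala, for 18 members in amygdala (51.1% of all tested genes), 17 in cerebellum (50.9%), 15 in hippocampus (51.1%), 18 in prefrontal cortex (50.7%) and 19 in striatum (53.8%). Regional differences ran from -0.79 (Cacng5 in amygdala) to 1.03 (Scn4b in amygdala), with a median standard error of 0.24. No label says which animal an array came from, and the p-values therefore reflect the variation among the arrays themselves, some of which may be technical.

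In amygdala, Cacng5 read 6.06, 6.07, 6.32 and 6.70 on the Ala arrays and 6.79, 7.07, 7.19 and 7.24 on the Thr arrays. It was the only member without overlap there, where 3.19% of all tested genes had none, and it sits close to the negative controls (-0.79 ± 0.34, adjusted p = 0.847). The olfactory bulb markers, 0 of 4 above the controls in amygdala, averaged 4.24 to 4.53 in Ala and 4.68 to 4.98 in Thr, and their part was not tested. Cacng4 read 10.39, 10.42, 10.70 and 11.44 in Ala and 11.08, 11.21, 11.48 and 11.57 in Thr (-0.60 ± 0.25, adjusted p = 0.832). The Ala array that reached into the Thr range was Ala amygdala 1. Without that array the differences of Cacng4 and Cacng5 were wider, at -0.83 (adjusted p = 0.411) and -0.92 (adjusted p = 0.633). Cacnb4 read 12.15, 12.26, 12.35 and 13.52 in Ala and 11.82, 11.87, 11.93 and 12.52 in Thr (0.54 ± 0.24, adjusted p = 0.876), and without Ala amygdala 1 its difference was 0.22. Scn4b had the widest difference (1.03 ± 0.51, adjusted p = 0.931), with 5.93, 6.26, 7.25 and 10.00 in Ala and 5.87, 6.19, 6.36 and 6.91 in Thr. Without Ala amygdala 1 the difference of Scn4b was 0.15, and the plot of Scn4b against striatal markers shows that array.

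In cerebellum the members with the smallest p were genes that are low in that region. Scn3b read 6.50, 7.82, 7.82 and 9.84 in Ala and 6.22, 6.85, 7.26 and 7.83 in Thr (0.95 ± 0.38, adjusted p = 1), and Cacng3 read 9.88, 10.63, 10.76 and 11.98 in Ala and 9.88, 9.89, 10.24 and 10.55 in Thr (0.68 ± 0.28, adjusted p = 1). Without Ala cerebellum 12 these differences were 0.34 and 0.29. Scn7a read 5.23, 5.45, 5.62 and 6.01 in Ala and 4.23, 4.84, 4.86 and 5.32 in Thr (0.76 ± 0.34, adjusted p = 1), and 0.88 without that array, with most values below the control range. No member was free of overlap in cerebellum (2.66% of all tested genes).

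In hippocampus, Cacna1g read 6.96, 7.34, 7.78 and 7.81 in Ala and 7.61, 7.65, 8.01 and 9.23 in Thr (-0.65 ± 0.29, adjusted p = 1). The Thr value of 9.23 is that of Thr hippocampus 23, and without it the difference was -0.29. Thalamic markers, 4 of 6 above the controls in hippocampus, averaged 7.71 to 7.92 in Ala and 8.03 to 10.55 in Thr, and without the 9 arrays, among them Thr hippocampus 23 and 24, the difference was -0.16. Cacng3 read 14.14, 14.67, 14.93 and 14.95 in Ala and 13.77, 13.85, 14.16 and 14.52 in Thr (0.60 ± 0.28, adjusted p = 1). Scn8a read 10.97, 11.03, 11.23 and 11.31 in Ala and 10.54, 10.66, 10.69 and 11.19 in Thr (0.37 ± 0.20, adjusted p = 1). The differences of Cacng3 and Scn8a were 0.86 and 0.21 without the 9 arrays. The groups of these 3 genes overlapped, and those of Cacna1b and Cacng4 did not, both lower in Ala (2.73% of all tested genes had no overlap). In prefrontal cortex the smallest p belonged to Scn1a, Cacna1d and Scn8a, with differences of 0.42 ± 0.22, 0.37 ± 0.24 and 0.29 ± 0.20 and overlap in each. Scn1a read 11.07, 11.52, 11.72 and 12.07 in Ala and 10.77, 11.01, 11.41 and 11.50 in Thr. Cacna1d read 9.57, 9.81, 9.96 and 10.90 in Ala and 8.97, 9.50, 10.12 and 10.18 in Thr, with array 27 at the top. Scn8a read 9.55, 10.00, 10.28 and 10.52 in Ala and 9.22, 9.81, 10.05 and 10.10 in Thr. Without the 9 arrays, among them prefrontal arrays 27 and 32, the differences of Scn1a, Cacna1d and Scn8a were 0.68, 0.23 and 0.47, with an adjusted p of 1 for each. No member was free of overlap in prefrontal cortex (1.66% of all tested genes).

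In striatum, 3 members had no overlap (1.98% of all tested genes). Cacna1e read 13.56, 13.85, 13.86 and 13.95 in Ala and 13.22, 13.38, 13.46 and 13.46 in Thr (0.43 ± 0.20, adjusted p = 0.806). Cacng3 read 15.64, 15.67, 15.71 and 15.84 in Ala and 15.27, 15.31, 15.55 and 15.60 in Thr (0.28 ± 0.28, adjusted p = 0.942). Both were higher in every Ala array, with an unadjusted p of 0.0349 for Cacna1e and 0.321 for Cacng3 in limma's test, and neither passed the adjustment over all genes. Cacng1, below the control range, read 4.23, 4.51, 4.51 and 4.54 in Ala and 4.55, 4.99, 5.05 and 5.06 in Thr (-0.47 ± 0.21, adjusted p = 0.806). Cacng7 read 12.83, 12.93, 12.98 and 13.32 in Ala and 13.22, 13.35, 13.39 and 13.51 in Thr (-0.36 ± 0.18, adjusted p = 0.806). One calcium channel partner was called between the genotypes in striatum. Tspoap1, which encodes a protein that links calcium channels to the active zone, read 10.09, 10.21, 10.22 and 10.27 in Ala and 9.24, 9.36, 9.41 and 9.57 in Thr (0.80 ± 0.17, adjusted p = 0.032). No other gene of the 4 partner lists was called in any region. Marker lists of other tissues also moved with genotype in striatum: choroid plexus markers (5 of 6 above the controls) averaged 9.06 to 12.18 in Ala and 7.39 to 8.57 in Thr, and liver markers (2 of 6) 6.78 to 7.51 in Ala and 7.66 to 9.85 in Thr. Both lists contain Ttr, and the liver markers above the controls were Ttr and Alb. In prefrontal cortex the liver markers lay the other way, from 5.11 to 5.93 in Ala and from 4.11 to 5.02 in Thr. The part of these lists in the striatal values was not tested.

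Averaged over the regions, Cacng3 and Cacna1e came closest, at 0.36 ± 0.13 (adjusted p = 0.849, unadjusted p = 0.00612) and 0.23 ± 0.09 (adjusted p = 0.849, unadjusted p = 0.012). They were also the 2 members with the same sign in 5 of 5 regions, both positive, where 7.98% of all tested genes kept a sign. The average differences of Cacna1g, Cacnb4 and Scn8a were -0.26 ± 0.13, 0.20 ± 0.11 and 0.16 ± 0.09. Of the 32 members 16 had a positive average (52.8% of all tested genes) and 16 a negative one, with a median of 0.01 beside 0.01 over all tested genes. With no array left out, all 32 averages were smaller than 0.5 in size, between -0.26 and 0.36. Without the 9 arrays that stood apart, the average of Cacng3 was 0.45 (adjusted p = 0.156). That of Cacna1e fell to 0.15 (adjusted p = 0.752), so Cacna1e was no longer among the closest. Cacnb4 then stood at 0.26 (adjusted p = 0.601) and Cacna1g at -0.22 (adjusted p = 0.722). Scn8a stood at 0.15 (adjusted p = 0.789).

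**Figure D5:**
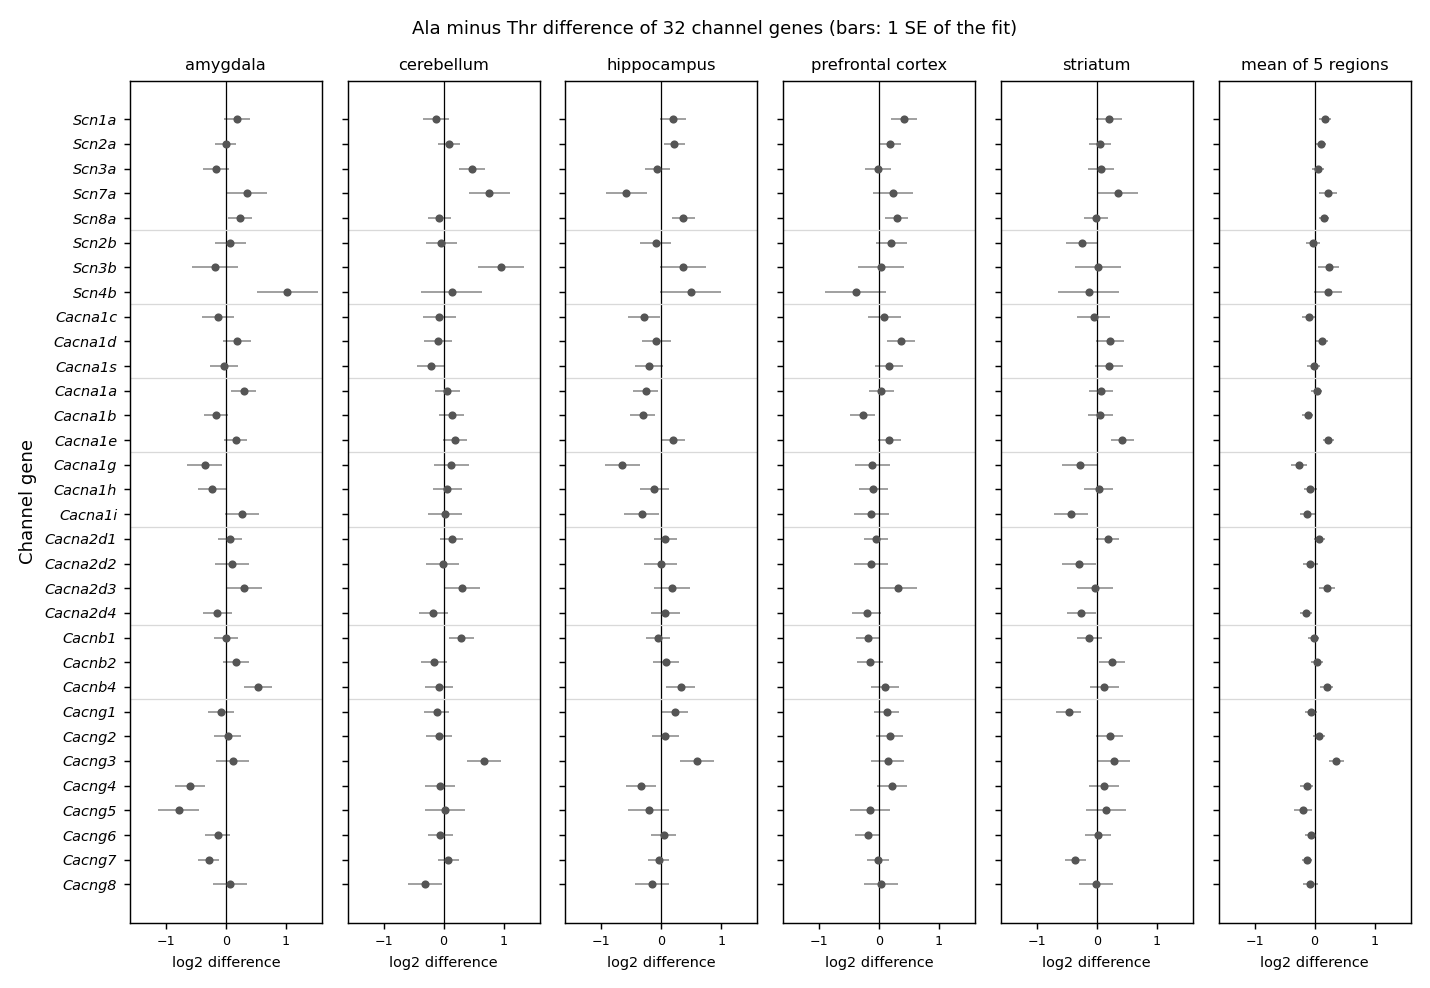
Ala minus Thr difference in log2 signal of the 32 tested channel genes, in each of 5 regions and averaged over them, with genes down the page by subunit class. Points are estimates of the limma fit and bars are 1 SE, and a point right of the line is higher in Ala. No point passed the adjusted threshold, and the widest are Scn4b in amygdala (1.03) and Scn3b in cerebellum (0.95).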

How the data were processed

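RNA of 40 brain samples was measured on Affymetrix arrays, 1 array a sample. The values used are log2 signals as deposited, which the authors made with RMA, per the submitters' processing notes. Its version is not stated there. Genes were named from the platform's annotation, and the row with the highest mean was kept for each of 19505 genes. Genes above log2 4.60 (the 30th percentile) on at least 4 arrays were tested, 14978 in all. limma 3.58.1 in R 4.3.3 fitted 1 mean per group with a trended empirical Bayes variance with 30 residual degrees of freedom. Ala was compared with Thr in each region and on average, each region with the mean of the other 4, and each region with each other. P-values were adjusted by Benjamini-Hochberg over all tested genes. The threshold was 0.05, with a log2 difference of at least 1 for regions. Steps were tested on simulated data. No 2 arrays held identical values. Regional values are given for called members, at most the 4 of widest range per class in full. Genotype values are given for the 3 members of smallest p in each region and the 5 on average, and partner genes for at most 3 per list and direction. Scn4b in amygdala, Cacng3 in striatum and Tspoap1 were added after their values were seen. The members and gene lists were chosen with earlier results of these data known. Alternatives tried were other filters, scalings, variance models and probe rows, other region thresholds, 1 genotype alone, each region fitted alone, each array left out, and, chosen after seeing the data, the arrays that stand apart left out and a forebrain reference. Each member had a single row, so the choice of probe row could not change a member's values.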

Additional observations from a re-analysis of the deposited data

Results flagged for a closer look

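Among 130 groups of 4 or 8 arrays that were checked, 17 held an array far from the others by Dixon's criterion. In a single group chance gives about 1 in 20, but the groups share arrays and their flags are not independent. The count of 17 is therefore no measure of an excess. Of these 17, 5 fell on Ala amygdala 1. Over the 8 amygdala arrays it was highest for Cacna2d2 at 8.77 (next 7.90), Cacnb1 at 13.84 (next 13.52), Cacnb4 at 13.52 (next 12.52) and Scn4b at 10.00 (next 7.25), and within the Ala group Cacnb4 stood out again (next 12.35). On Ala cerebellum 12 the outlying values were 12.34 for Cacna1e (next 11.87), 9.83 for Cacnb1 (next 9.06), 11.98 for Cacng3 (next 10.76) and 9.84 for Scn3b (next 7.84), all genes that are lower in cerebellum than elsewhere. Ala striatum 36 was highest for Cacnb2 at 15.10 (next 14.09) and Cacnb4 at 14.00 (next 13.55). Thr hippocampus 23 had 9.23 for Cacna1g (next 8.01). Single values apart were 12.18 for Cacnb2 on Thr cerebellum 16, 11.06 for Cacng4 on Thr cerebellum 14 and, among the 4 Thr amygdala arrays, 12.52 for Cacnb4 on array 5. For Cacng1, below the negative controls, 4.23 on Ala striatum 34 and 4.55 on Thr striatum 39 were each the lowest of their 4 arrays.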

How the results depend on the processing

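Genotype counts stayed at 0 of 32 under all alternatives run, including each array left out and the arrays that stand apart left out. None of the 20 named genotype results passed the threshold or changed direction. Of 55 named regional differences, 36 kept their call under all alternatives run. The rest fell short of it under 23 combinations of result and alternative and turned sign under 2. The sign turned for Scn3b in prefrontal cortex (-0.66) and striatum (-0.60) against the other 3 forebrain regions, a reference without the cerebellum. That reference was applied to the 4 forebrain regions only, so the cerebellar differences among the 55 were not tested against it. Without the 9 arrays that stand apart, Scn3a and Scn3b in prefrontal cortex fell just under the log2 threshold, at 0.98 and 0.99. Against that reference amygdala had 1 member higher and 2 lower, and prefrontal cortex 4 lower. With a log2 difference of at least 0.5, amygdala had 10 lower (9.03% of all tested genes), hippocampus 9 higher (8.68%) and 9 lower (7.48%), and prefrontal cortex 11 higher (8.12%) and 9 lower (6.9%). With no minimum difference (0), amygdala had 12 lower (17.3%), hippocampus 11 higher (13.8%) and 12 lower (14.1%), prefrontal cortex 12 higher (12.7%) and 12 lower (13.1%), and striatum 15 higher (20.8%). The number of adjacent regions that differ was 33 in Ala arrays alone, and prefrontal cortex had 4 lower in Thr arrays alone. Leaving out each array in turn gave, in amygdala, 5 to 6 higher and 4 lower, in cerebellum 8 higher and 12 lower, in hippocampus 2 to 3 higher and 4 to 5 lower, in prefrontal cortex 6 to 7 higher and 2 to 4 lower, and in striatum 9 to 10 higher and 5 to 6 lower. The order of regions had 49 to 55 adjacent pairs that differ. The 4 lower in prefrontal cortex came without Ala prefrontal cortex 26 or Thr prefrontal cortex 29. Median centring moved the median of all genes in the cerebellar contrast by -0.10. No paired analysis was possible because the numbers 1 to 40 are not shared between groups. Signals near the negative controls limit what Scn7a, Cacng5, Cacng1, Cacng6, Stx1a and Stac can show, and causes were not tested.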
